A study of Mus musculus with 6 samples.

Results

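The genes of DNA replication and mitosis were examined in early T cell progenitors (ETPs) of the mouse fetal thymus as a set of 52 genes. They were chosen by name from what is known of the cell cycle, with earlier results of these data already known. All 52 were found among the 22609 rows of the authors' deposited table, and all 52 had been tested there. They were divided into 31 S phase genes and 21 genes of G2 and mitosis (G2/M). The division is a broad one: the S phase genes take in those of origin licensing and of the G1/S transition. The G2/M genes take in Ccna2, whose product also acts in S phase. The comparison was between 3 wild-type control libraries and 3 libraries of cells lacking both E2A and HEB (genotype E2Afl/flHEBfl/flIL7RCre, here dKO), all from C57BL/6 mice. E2A, encoded by Tcf3, and HEB, encoded by Tcf12, are E protein transcription factors. In the dKO mice their floxed alleles were deleted by a Cre recombinase driven by the Il7r locus, which is active in lymphoid progenitors. Cells of both groups were sorted as lineage-negative, CD44-positive and c-Kit-positive cells without CD4, CD8 or CD25, and the dKO cells were additionally sorted for YFP. The Cre allele, too, is named for the dKO group alone. Effects of this added gate, of the Cre allele and of the loss of E2A and HEB cannot be told apart. For embryo age and pooling of animals no label was found in the sources used here.

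The table gives 1 mean normalised read count per gene and group, with no value for a single library, so each level below is the authors' mean of a group. A change is written as the log2 of the dKO mean over the control mean. Calls of higher or lower rest on an adjusted p under 0.05 from the authors, corrected over all tested genes. Separate animals behind the libraries are not stated in the labels, so p-values reflect only the scatter among these libraries, and that scatter may be technical. The targeted genes fell as labelled, Tcf3 from 8931 to 364 (24.6-fold) and Tcf12 from 3845 to 562 (6.84-fold; adjusted p = 1.2e-292 and 1.49e-97 in the authors' deposited table).

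DNA is copied once per division in S phase. Origins are licensed in G1, when Cdc6 and Cdt1 load the ring of Mcm2 to Mcm7 onto DNA, and they fire when the GINS proteins and other factors turn that ring into the active helicase. Transcription of the replication genes is driven by E2F factors once cyclin D and cyclin E kinases have released them from the retinoblastoma family. Genes of G2 and mitosis peak later, under the MuvB complex with B-Myb and Foxm1, through a promoter element called the cell cycle genes homology region (CHR) that is often accompanied by upstream CCAAT boxes bound by NF-Y. Progenitors in the thymus divide repeatedly before the T cell receptor genes are rearranged.

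Promoter sequences of 9 members are shown first, since S phase and G2/M genes differ in the letters upstream of their starts. Each is the 150 bases before the RefSeq start on build GRCm38.p6, 5′ to 3′ on the gene's strand. Capitals mark matches on either strand to an E2F core, to the CHR or to the CCAAT box, and matches that overlap run together. The first 4 are G2/M genes that were higher in dKO.
Ube2c promoter, chr2:164769779-164769928, plus strand: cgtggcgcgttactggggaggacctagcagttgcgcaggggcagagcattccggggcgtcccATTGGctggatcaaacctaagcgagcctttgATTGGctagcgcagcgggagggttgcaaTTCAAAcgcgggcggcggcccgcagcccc
Top2a promoter, chr11:99024190-99024339, minus strand: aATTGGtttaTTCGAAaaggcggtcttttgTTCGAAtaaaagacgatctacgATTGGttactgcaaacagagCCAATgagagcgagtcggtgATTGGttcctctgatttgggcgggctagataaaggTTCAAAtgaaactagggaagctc
Kif11 promoter, chr19:37376232-37376381, plus strand: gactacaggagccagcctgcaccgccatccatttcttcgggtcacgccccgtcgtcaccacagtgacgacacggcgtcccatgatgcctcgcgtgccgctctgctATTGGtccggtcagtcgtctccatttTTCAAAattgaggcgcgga
Cdk1 promoter, chr10:69352913-69353062, minus strand: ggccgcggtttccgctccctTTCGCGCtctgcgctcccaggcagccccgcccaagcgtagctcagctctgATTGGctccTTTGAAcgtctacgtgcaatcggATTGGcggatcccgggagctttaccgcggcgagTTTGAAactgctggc

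In each of these a CHR match, read as ttcaaa where it lies on the opposite strand, stands in the last 30 bases before the start, with at least 1 CCAAT box upstream of it. Cdk1 also has an E2F core farther upstream. The next 2 are S phase genes that were also higher in dKO.
E2f8 promoter, chr7:48881597-48881746, minus strand: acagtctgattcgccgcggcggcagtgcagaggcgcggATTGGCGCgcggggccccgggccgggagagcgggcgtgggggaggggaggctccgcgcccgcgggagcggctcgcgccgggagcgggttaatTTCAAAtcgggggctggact
Rrm2 promoter, chr12:24708104-24708253, plus strand: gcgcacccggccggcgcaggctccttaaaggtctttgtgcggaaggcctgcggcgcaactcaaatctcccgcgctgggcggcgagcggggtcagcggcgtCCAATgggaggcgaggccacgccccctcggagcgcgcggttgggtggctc

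E2f8 has both a CCAAT box overlapping an E2F core and a CHR match close to its start. As in the G2/M genes shown above, the CCAAT box lies upstream of the CHR match, but the spacing differs. The only CCAAT box of E2f8 starts at -112 from the gene's start and shares letters with the E2F core, with the CHR match at -20. In the G2/M promoters shown, the box nearest the CHR match starts between -58 (Top2a) and -45 (Kif11). The promoters shown are examples, and other G2/M genes differ. In Plk1 and Aurka, for example, the CHR match lies after the start, and the windows of Ccnb1, Birc5 and Cenpe hold none. Rrm2 has a CCAAT box and no CHR match in this stretch. The last 3 are S phase genes that were lower in dKO (Rrm1) or did not pass (Mcm6 and Hells).
Rrm1 promoter, chr7:102441545-102441694, plus strand: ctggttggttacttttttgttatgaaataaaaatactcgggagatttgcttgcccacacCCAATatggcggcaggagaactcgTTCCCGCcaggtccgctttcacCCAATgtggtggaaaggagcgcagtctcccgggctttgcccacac
Mcm6 promoter, chr1:128359706-128359855, minus strand: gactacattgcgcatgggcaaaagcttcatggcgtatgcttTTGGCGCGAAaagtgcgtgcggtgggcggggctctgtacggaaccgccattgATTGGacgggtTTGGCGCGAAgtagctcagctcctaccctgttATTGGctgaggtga
Hells promoter, chr19:38930840-38930989, plus strand: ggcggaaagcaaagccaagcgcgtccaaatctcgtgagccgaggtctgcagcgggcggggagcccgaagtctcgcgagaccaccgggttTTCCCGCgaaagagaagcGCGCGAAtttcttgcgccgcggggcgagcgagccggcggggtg

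Here E2F cores stand in place of the CHR. In Mcm6, cores on opposite strands overlap at 2 places. Rrm1 and Mcm6 also have CCAAT boxes, and Hells has none.

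Most G2/M genes rose in dKO, and most S phase genes did not pass the test. Of 21 G2/M genes, 14 rose, 0 fell and 7 did not pass (DESeq in the authors' deposited table, with 17 higher and 0 lower at an unadjusted p under 0.05). Of 31 S phase genes, 4 rose, 2 fell and 25 did not pass. Among all 16241 tested genes 29.0% were called, 15.1% higher and 13.8% lower, so the 14 of 21 stand beside 15.1% and the 4 of 31 lie near it. Abundant genes were called more often. Of the 5231 with a mean of at least 1000 over both groups, which takes in all 21 G2/M and 26 of the S phase genes, 43.9% were called, 25.1% higher and 18.8% lower. The 14 of 21 G2/M genes lie above that share of genes called higher. For the S phase genes, the 4 of 31 higher and 2 of 31 lower lie under the shares of abundant genes, which was not tested.

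The median log2 change was 0.45 over the G2/M genes and 0.04 over the S phase genes, beside -0.01 over all tested genes and 0.02 over the abundant ones. The medians of both lists thus differed by 0.41. With the group means scaled to the same total, which lowers every change by 0.08, the G2/M median was 0.37 and the S phase median turned to -0.04. The middle part of the G2/M genes, between their quartiles, ran from 0.25 to 0.58 and that of the S phase genes from -0.11 to 0.15, beside -0.22 to 0.33 for the abundant genes. All 21 G2/M genes had a higher mean in dKO than in control under the authors' normalization, and 19 of 21 did with equal totals. Of the S phase genes 17 of 31 did, 14 with equal totals. Only 4 S phase genes, those that were called higher, lay above the G2/M median. Members of a list are not independent replicates, and no test of the difference between the lists was made.

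**Figure D1:**
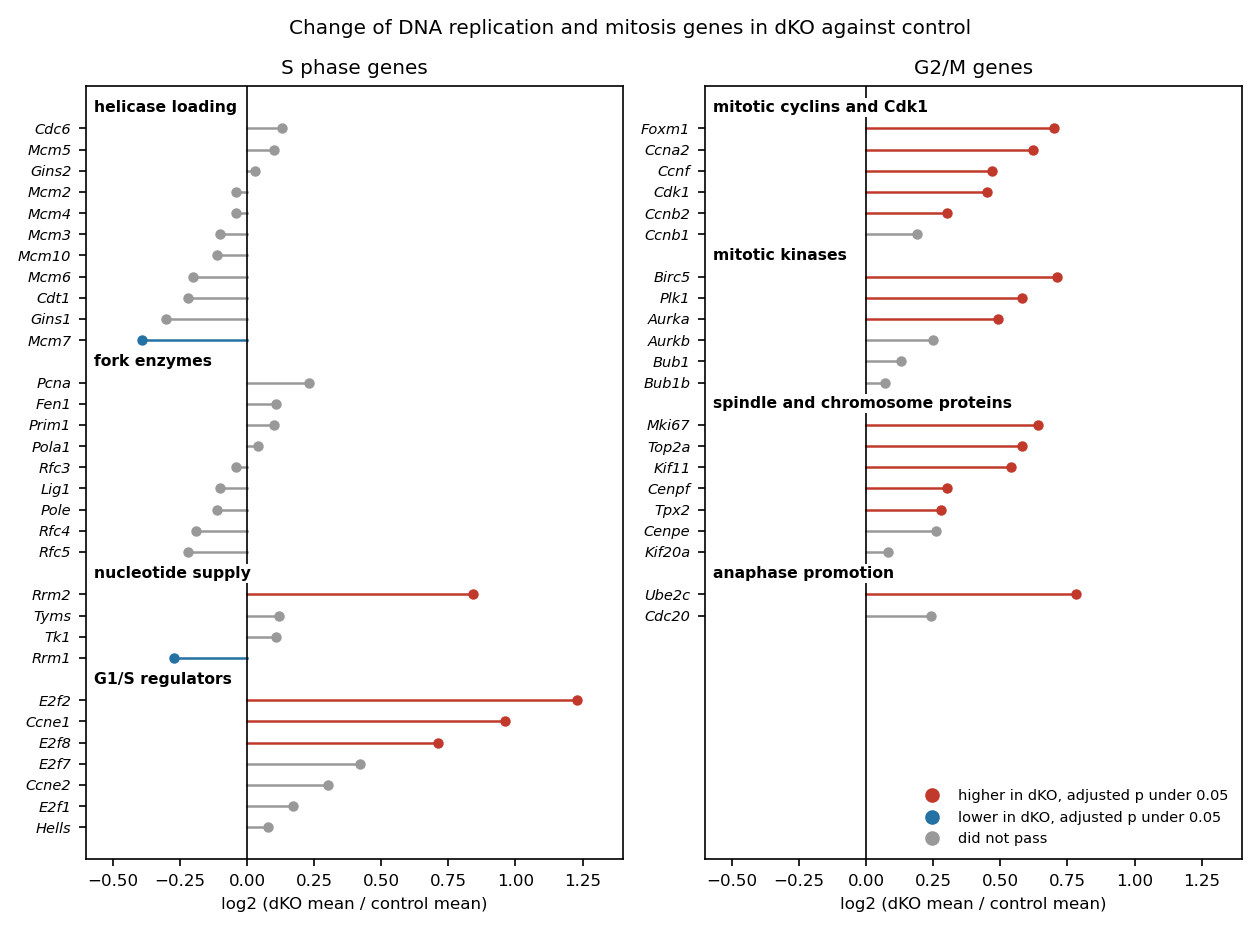
Change of each S phase gene (left) and G2/M gene (right) in dKO against control, as log2 of the dKO mean over the control mean, by role. Points are single genes from group means, coloured by the authors' adjusted p, with no error bar since the table gives none. All G2/M points lie right of 0, although Bub1b and Kif20a fall just left of it with equal totals, whereas the S phase genes lie on both sides except for the G1/S regulators.

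Summed over the list, the normalised counts of the G2/M genes went from 106764 in control to 147191 in dKO, a rise of 37.9%. Those of the S phase genes were 177780 and 177231. The G2/M sum was therefore 60.1% of the S phase sum in control and 83.1% in dKO. Of all normalised counts, the G2/M sum made up 0.483% in control and 0.63% in dKO, and the S phase sum 0.805% and 0.758%. Mki67 (17723 and 27530) and Top2a (17048 and 25536) weigh most in the G2/M sum. In these bulk samples a larger share of cells in G2 or mitosis and more of each mRNA per cell cannot be told apart.

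Facts of the whole series bear on these values. Each control library held an estimated 18.2 to 22.6 M counted reads and each dKO library 24.3 to 27.0 M, from the spacing of the lowest values. Of 10 ETP markers 6 fell and 3 rose, with a summed mean of 47586 in control and 46324 in dKO. Kit and Cd44, used in the sort, had means of 14094 and 19067 and of 3220 and 2765. Of 11 innate lymphoid and NK markers 9 rose, from a sum of 10857 to 54059, and 4 of 8 later thymocyte markers fell while 1 rose, from 8297 to 2857. Of 11 myeloid markers found, 4 fell and 2 rose, from 9013 to 2848, with S100a8 and S100a9 listed at 0 in both groups. Of 12 erythroid markers the 6 tested did not pass (sums of 2975 and 2510, mostly Tfrc, with Hba-a1, Hba-a2, Hbb-b1, Hbb-b2, Hbb-bh1 and Slc4a1 at 0). B cell markers (2 of 8 lower, sums of 1279 and 1088, Pax5 and Ms4a1 at 0) and stroma markers (1 of 8 lower, sums of 2920 and 2500, Pdgfra and Cdh5 at 0) made up the rest. Of these sums, that of the innate lymphoid markers rose as the G2/M sum did and the other 6 fell, but a sum can rest on few abundant genes. Much of the ETP sum is Kit and Ptprc, which rose, while Notch1 fell from 10176 to 1829 and Flt3, Cd34 and Lyl1 also fell. The stroma sum is mostly Pecam1, which fell from 2639 to 2063. Epcam, Krt5, Krt8 and Col1a1 had higher means in dKO and Foxn1 a lower one, none of them called. The part of these cell types in the G2/M result was not tested.

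Of 11 genes of the replicative helicase and its loaders, Mcm7 fell and the other 10 did not pass, with a median log2 change of -0.10. Mcm7, a subunit of the ring, had 13953 normalised counts in control and 10617 in dKO, 1.31-fold lower (adjusted p = 0.000242 in the authors' deposited table). Its ring partners had control and dKO means of 12856 and 12525 (Mcm2), 13870 and 12920 (Mcm3), 12684 and 12376 (Mcm4), 12774 and 13697 (Mcm5) and 29040 and 25248 (Mcm6). Among these Mcm6 came closest to the threshold, at -0.20 on the log2 scale (adjusted p = 0.0718 in the authors' deposited table). The 6 subunits of 1 ring thus had changes from -0.39 to 0.10, with only Mcm7 called.

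The factors that act on the ring did not pass. Cdc6, the loader, had means of 3939 and 4307, and Cdt1, its partner, 3716 and 3197 (log2 changes of 0.13 and -0.22). Mcm10, which acts as the helicase is activated, had means of 2541 and 2356. The GINS subunit genes Gins1 and Gins2 had means of 752 and 611 and of 1162 and 1187. Gins1 had the lower change of this pair, -0.30, with an adjusted p of 0.200 in the authors' deposited table.

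The 9 genes of the replication fork did not pass, with changes from -0.22 (Rfc5) to 0.23 (Pcna) on the log2 scale (DESeq: 0 called, 1 higher and 1 lower at an unadjusted p under 0.05). Pcna, the sliding clamp that holds polymerases on DNA, had means of 7880 in control and 9220 in dKO (adjusted p = 0.0619 in the authors' deposited table). The clamp loader genes Rfc3, Rfc4 and Rfc5 had control and dKO means of 1175 and 1140, 1702 and 1497, and 3868 and 3326, all lower in dKO and none called. The polymerase genes Pola1 and Pole had means of 2075 and 2138 and of 3228 and 2985. For the primase subunit Prim1 they were 2524 and 2699. Fen1, which trims Okazaki fragments, had means of 6040 and 6510, and Lig1, which joins them, 6677 and 6224.

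Nucleotide supply held a split between the subunits of a single enzyme. Ribonucleotide reductase makes deoxynucleotides and consists of a large subunit, Rrm1, and a small subunit, Rrm2, whose level follows the cell cycle. Rrm2 rose from 7693 to 13760, 1.79-fold (adjusted p = 1.74e-16 in the authors' deposited table), the smallest adjusted p of the 52 genes. Rrm1 fell from 13562 to 11256, 1.2-fold (adjusted p = 0.0152 in the authors' deposited table). Thymidylate synthase (Tyms) and thymidine kinase (Tk1), which supply thymidine nucleotides, had means of 4121 and 4467 and of 2011 and 2176 and did not pass.

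All 7 genes grouped as regulators of the G1/S transition, with the chromatin remodeller Hells among them, had a higher mean in dKO, and 3 were called. E2f2, an activator E2F, rose from 573 to 1346, 2.35-fold, the largest change of the 52 genes (adjusted p = 4.78e-06 in the authors' deposited table). Ccne1, which encodes cyclin E1, the partner of Cdk2 at S phase entry, rose from 834 to 1626, 1.95-fold (adjusted p = 2.47e-08 in the authors' deposited table). E2f8, an atypical E2F that represses E2F targets, rose from 1233 to 2021, 1.64-fold (adjusted p = 9.54e-05 in the authors' deposited table). The relatives of these genes did not pass: Ccne2 had means of 407 and 500, E2f1 499 and 561, and E2f7, the other atypical E2F, 371 and 496. The chromatin remodeller Hells had means of 4021 and 4243; with equal totals its change was -0.0044. A difference between the called and the uncalled member of each pair was not tested. E2f1, E2f7 and Ccne2 have the lowest means of the members.

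**Figure D2:**
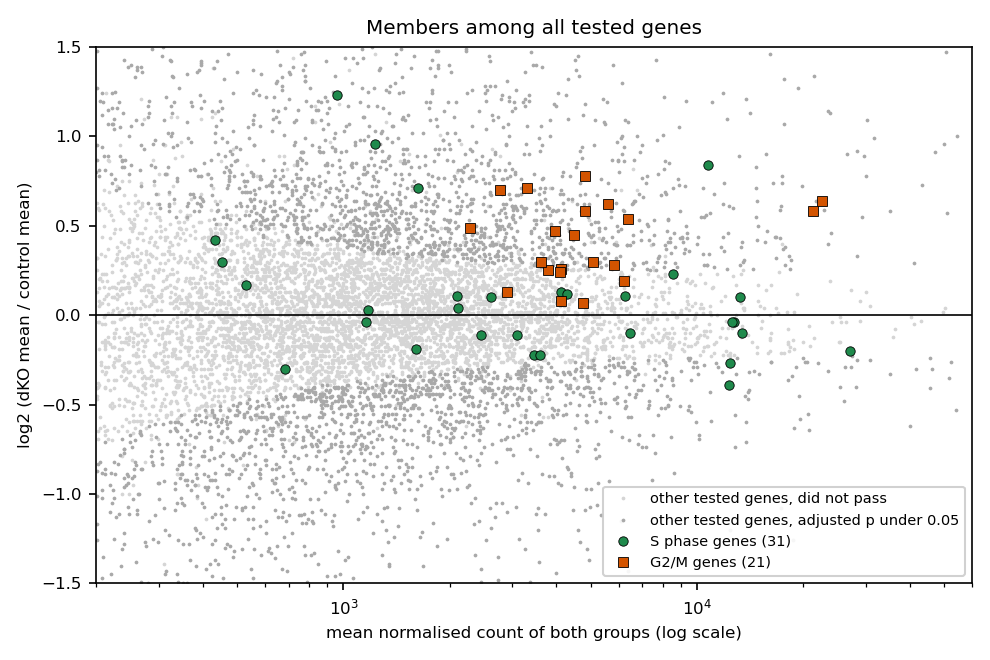
Log2 of the dKO mean over the control mean against the mean normalised count of both groups (log scale, 200 to 60000) for all tested genes within 1.5 on the vertical axis, with S phase genes as green circles and G2/M genes as orange squares. Dark grey genes passed the authors' adjusted p under 0.05. The orange squares lie above 0, with 14 of 21 in the called range, and most green circles lie in the uncalled band around 0.

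Of the mitotic cyclin genes, their kinase and Foxm1, 5 of 6 rose. Ccna2, the cyclin of S phase and G2, rose from 4410 to 6799, 1.54-fold (adjusted p = 2.87e-08 in the authors' deposited table). Cdk1, the kinase that drives entry into mitosis, rose from 3780 to 5178, 1.37-fold (adjusted p = 0.000166 in the authors' deposited table). Its cyclin partners were less alike: Ccnb2 rose from 4551 to 5610, 1.23-fold, and Ccnb1, with means of 5829 and 6642, did not pass (adjusted p = 0.0175 and 0.186 in the authors' deposited table). Ccnf, whose product is the substrate receptor of a ubiquitin ligase, rose from 3340 to 4616. Foxm1, the transcription factor of many G2/M genes, rose from 2108 to 3427, 1.63-fold (adjusted p = 2.81e-07 in the authors' deposited table).

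Mitotic kinases and their partners divided into called and uncalled genes. Birc5, which encodes survivin of the chromosomal passenger complex, rose from 2507 to 4104, 1.64-fold (adjusted p = 3.06e-09 in the authors' deposited table). Aurkb, the kinase of that complex, had means of 3469 and 4132 and missed the threshold (adjusted p = 0.0715 in the authors' deposited table). Plk1 and Aurka, kinases of spindle assembly and mitotic entry, rose from 3878 to 5778 and from 1893 to 2667, by 1.49-fold and 1.41-fold. The spindle checkpoint genes Bub1 and Bub1b had means of 2782 and 3038 and of 4655 and 4889 and did not pass. Bub1b had the lowest change of the G2/M genes, 0.07, and -0.01 with equal totals.

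Among spindle and chromosome proteins 5 of 7 rose. Mki67, the proliferation marker that coats mitotic chromosomes, rose from 17723 to 27530, 1.55-fold (adjusted p = 1.93e-09 in the authors' deposited table). Top2a, the topoisomerase that untangles sister chromatids, rose from 17048 to 25536, by 0.58 on the log2 scale, which is just under 1.5-fold (adjusted p = 7.37e-09 in the authors' deposited table). Kif11, the motor that separates spindle poles, rose from 5211 to 7581, 1.45-fold. Tpx2, an activator of Aurora A, and Cenpf, a kinetochore protein, rose by 1.22-fold and 1.23-fold, from 5250 to 6394 and from 3242 to 3998. The kinetochore motor Cenpe had means of 3754 and 4497 and the midzone motor Kif20a 4012 and 4240, and neither passed.

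The anaphase promoting complex marks cyclin B and securin for destruction. Ube2c, its E2 enzyme, rose from 3557 to 6102, 1.72-fold, the largest change of the G2/M genes (adjusted p = 2.9e-12 in the authors' deposited table). Cdc20, its activator in mitosis, had means of 3765 and 4432 and did not pass (adjusted p = 0.0988 in the authors' deposited table). Changes of the 21 G2/M genes ran from 0.07 to 0.78 on the log2 scale, and 5 of the 14 called (Ube2c, Birc5, Foxm1, Mki67 and Ccna2) were at least 1.5-fold higher, beside 4 S phase genes that were.

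The uncalled members can be read against what the test called at this abundance. Of tested genes with a mean of at least 1000, 0% of 951 with a change of 0.1 to 0.2 in either direction were called, 15.3% of 786 at 0.2 to 0.3, 71.0% of 575 at 0.3 to 0.4 and 91.6% of 467 at 0.4 to 0.5. No observed change under 0.2 on the log2 scale was thus called at this abundance. How large a true change the test could detect is not given by these shares. These shares do not describe the 4 uncalled S phase genes with means under 1000, Gins1, Ccne2, E2f1 and E2f7, whose changes of -0.30, 0.30, 0.17 and 0.42 did not pass. The 25 S phase genes that did not pass are not shown to be equal in both groups. The lowest group mean of a member, 371 for E2f7 in control, rests on about 1040 reads over the group.

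Other genes of DNA synthesis, from lists by function that hold none of the members, were called in few cases or in both directions. Their counts stand beside 15.1% higher and 13.8% lower of all tested genes, and 25.1% and 18.8% of abundant ones. The counts lie near or under the shares of abundant genes, and a difference from these shares was not tested. Of 21 genes of origin licensing and firing only Clspn, which encodes the checkpoint mediator claspin, was called, 1.27-fold higher (adjusted p = 0.0446 in the authors' deposited table), so that 20 missed the threshold. Topbp1, Timeless and Tipin had control and dKO means of 7807 and 7178, 4747 and 4452, and 4010 and 3456. Of 22 other fork subunits 2 rose and 5 fell (median -0.19). Pole4, a small subunit of polymerase epsilon, rose from 1931 to 3220, while Rnaseh2a fell from 1679 to 1091 and Pold3 from 3882 to 2695. Of 19 genes of homologous recombination 1 rose and 2 fell: Brip1 rose 1.28-fold, and Brca2 and Exo1 were 1.67-fold and 1.32-fold lower. Of 16 genes in a list for chromatin replication 3 rose and 3 fell, but not all of them act on chromatin. Asf1b, a histone chaperone, rose from 2999 to 6506, 2.17-fold (adjusted p = 1.45e-22 in the authors' deposited table). Stmn1, a microtubule regulator, fell from 25258 to 16170, and Rcc1 and Chaf1b fell too. Stmn1 and Rcc1 are thus not counted in the mitosis lists below.

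Genes of nucleotide metabolism, most of them for enzymes that build nucleotides, fell more often than they rose. Of 26 genes 13 fell and 4 rose (median log2 change -0.28), beside 13.8% of all tested genes and 18.8% of abundant ones lower. With a fold of at least 1.5 required, 2 fell and 2 rose, so most of the genes that fell did so by less than that. Paics and Impdh2, enzymes of purine synthesis, fell from 16022 to 9561 and from 12533 to 7787, 1.68-fold and 1.61-fold (adjusted p = 1.26e-13 and 2.95e-11 in the authors' deposited table). The 4 that rose were Samhd1, Nme2, Mthfd2 and Tk2. Samhd1, which breaks down deoxynucleotides, rose from 1306 to 6979, 5.34-fold (adjusted p = 2.48e-18 in the authors' deposited table), and the other three rose by 1.33-fold to 1.51-fold. Dut, Adss and Impdh1 did not pass.

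Genes of cell cycle entry moved in both directions, as 5 of 24 rose, beside 15.1% of all tested genes and 25.1% of abundant ones, and 8 fell, beside 13.8% and 18.8%. The D cyclins split: Ccnd1 fell from 319 to 72.5, 4.4-fold, while Ccnd2 rose from 8579 to 13790, 1.61-fold, and Ccnd3 from 4887 to 6623 (adjusted p = 8.13e-11, 6.11e-10 and 0.000203 in the authors' deposited table). Their kinase partners fell, Cdk6 from 2312 to 976 and Cdk4 from 15819 to 11553. Cdk2, the partner of cyclin E, had means of 3219 and 3146. Of the retinoblastoma family, Rbl2 (p130) rose from 2204 to 6447, 2.93-fold, and Rb1 from 399 to 1017 (adjusted p = 3.73e-43 and 8.06e-10 in the authors' deposited table), while Rbl1 (p107), with means of 3415 and 3911, did not pass. Mybl2, which encodes B-Myb, fell from 3161 to 2236, 1.41-fold, and Lin9, a subunit of MuvB, rose from 428 to 669. Thus Foxm1 rose and Mybl2 fell among the regulators of the G2/M genes. Cdk4 and Mybl2 were chosen for naming after their values were seen.

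Brakes on the cycle rose in most cases. Of 20 tested genes for inhibitors of cyclin-dependent kinases, antiproliferative factors and checkpoints, 12 rose and 1 fell (median log2 change 0.78), beside 15.1% of all tested genes and 25.1% of abundant ones higher. The 12 include Mdm2, which opposes p53 and is not itself a brake, with means of 1842 and 3112. Mdm2 was chosen for naming after its values were seen. Gadd45g, a stress-induced growth arrest gene, rose from 85.6 to 1476, 17.2-fold (adjusted p = 5.52e-95 in the authors' deposited table). Cdkn2c, which encodes the Cdk4 and Cdk6 inhibitor p18, rose from 155 to 607, 3.92-fold, and Btg2 and Ccng1 rose 2.38-fold and 1.94-fold. The gene that fell was Cdkn1a, which encodes p21, from 842 to 504, 1.67-fold lower (adjusted p = 0.000279 in the authors' deposited table). Cdkn2a was listed at 0 in both groups. Trp53, Wee1 and Pkmyt1 did not pass, with changes of -0.15, 0.26 and 0.26.

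**Figure D3:**
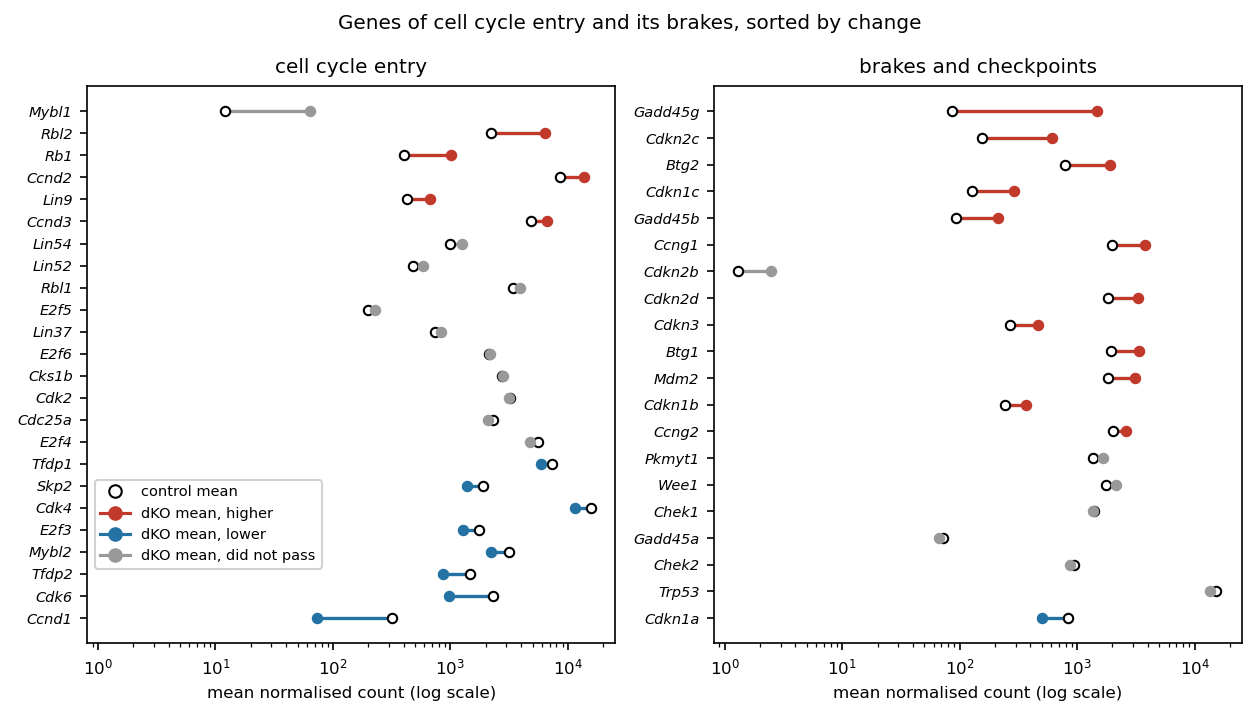
Control mean (open circles) and dKO mean (filled circles) of the tested genes of cell cycle entry (24) and of brakes and checkpoints (20), in normalised counts on a log scale and sorted by change. Red and blue mark genes called higher and lower in dKO by the authors' test. Gadd45g shows the widest gap, and Cdkn1a is the single blue gene of the right panel.

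In each list of other genes of mitosis more rose than fell, and these counts stand beside 15.1% of all tested genes and 25.1% of abundant ones called higher. The kinetochore, cohesin and condensin, and anaphase promoting complex lists lay near the share of abundant genes, and the spindle list lay above it. Of 31 genes of the spindle and cytokinesis 20 rose and 1 fell (median log2 change 0.33). Cdc25b, the phosphatase that activates Cdk1, rose from 1655 to 3606, 2.18-fold (adjusted p = 6.96e-12 in the authors' deposited table), and Nusap1, Kif18b and Cep55 rose 1.67-fold, 1.81-fold and 1.82-fold. The gene that fell was the kinesin Kif24. Of 36 kinetochore and centromere genes 11 rose and Cenpp alone fell (median log2 change 0.16). Spc25 and Ndc80, subunits of the microtubule-binding Ndc80 complex, rose 1.67-fold and 1.73-fold, while Spc24 of the same complex had means of 2572 and 2791 and did not pass. Of 20 cohesin and condensin genes 7 rose and the other 13 did not pass. Condensin subunits Ncaph and Smc2 rose from 3123 to 4661 and from 4302 to 6170, and Smc4 and Ncapd2 did not pass. Of 17 genes of the anaphase promoting complex 6 rose and 3 fell, among them its inhibitor Fbxo5, 1.64-fold higher, and its E2 enzyme Ube2s, 1.37-fold higher, against the subunit Cdc26, 1.43-fold lower.

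Of 61 tested histone genes of the clusters 9 rose, 2 fell and 50 did not pass, beside 15.1% higher and 13.8% lower of all tested genes, so the count that rose lay at the background. The 9 that rose all encode H2A and moved by nearly the same amount, from 0.51 to 0.68 on the log2 scale, with Hist1h2ag highest. Their near-identical copies may share reads, so they are not separate evidence. Hist1h2bc and Hist1h3d fell. Most of these mRNAs carry no poly(A) tail.

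**Figure D4:**
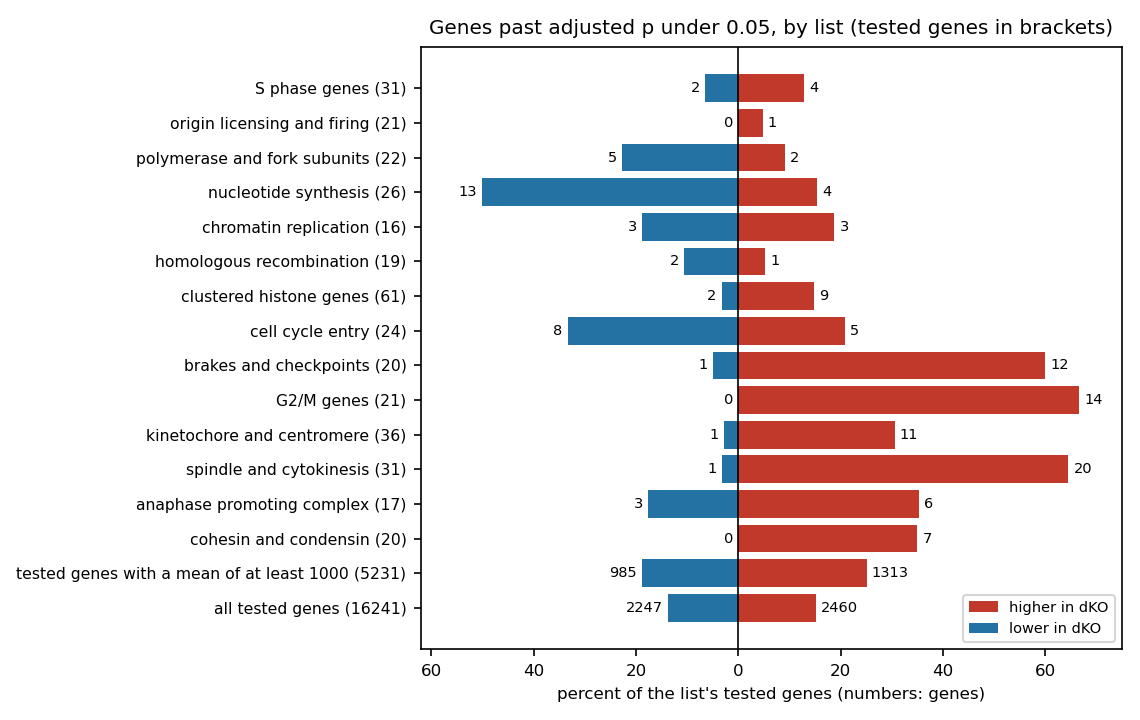
Percent of the tested genes of each list called higher (red, right) or lower (blue, left) in dKO by the authors' test, with the number of genes at the end of each bar and the number tested in brackets. The G2/M and spindle lists reach 14 of 21 and 20 of 31 higher, the nucleotide synthesis list 13 of 26 lower, and the bottom bars give the abundant and all tested genes.

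The promoters of the members were searched for letters bound by cell cycle regulators and by E proteins. RefSeq windows of 300 bases, from 250 before to 50 after the start on GRCm38.p6, were found for 42 of 52 members (26 S phase and 16 G2/M), and 4 S phase genes had more than 1 window, which gave 31 and 16 windows. The E2F core was taken as TTCCCGC or TTGGCGC or TTCGCGC or TTGCCGC, the CHR as TTTGAA or TTCGAA, the CCAAT box of NF-Y as CCAAT, and the E-box as CAGCTG or CACCTG, on both strands. An E2F core can overlap another E2F core or a CCAAT box on the opposite strand.

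A CHR match was in 13 of 16 G2/M windows (81.2%) and in 6 of 31 S phase windows (19.4%), beside 19.2% of all 32851 windows and 14.7% of the 5030 windows of abundant genes. The E2F core showed the opposite order, with 20 of 31 S phase windows (64.5%), 3 of 16 G2/M windows (18.8%), 9.57% of all windows and 18.8% of those of abundant genes. CCAAT boxes were in 93.8% of G2/M and 54.8% of S phase windows, beside 37.4% of all. A window with both a CHR and a CCAAT box was found for 81.2% of the G2/M and 16.1% of the S phase windows, beside 7.52% of all. Of the G2/M genes that rose 10 of 11 windows had both, and of those that did not pass 3 of 5. Birc5 rose and its window holds neither. E-boxes were in 18.8% of G2/M and 16.1% of S phase windows, below the 32.9% of all windows and the 27.5% of abundant genes. These matches describe letters and do not show binding.

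**Figure D5:**
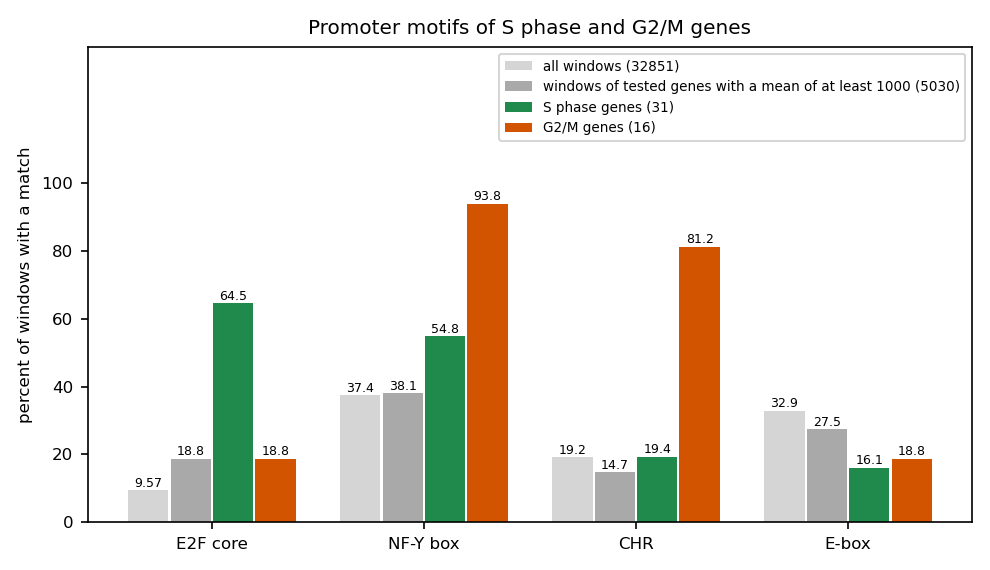
Percent of 300-base promoter windows with at least 1 match to each motif, for all windows, windows of tested genes with a mean of at least 1000, S phase genes and G2/M genes (number of windows in brackets). The CHR is at 81.2% in G2/M genes and 19.4% in S phase genes, and the E2F core at 18.8% and 64.5%.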

How the data were processed

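RNA sequencing libraries of sorted ETPs were compared, 3 control and 3 dKO, grouped by their labels. Per the labels' protocols, RNA was amplified from few cells with a low-input kit, so reads are not independent molecules. Build mm9 and the tools DESeq version 2, TopHat2 2.0.14 and bcl2fastq 1.8.4 are named, without roles, in the submitters' processing notes. The read counter and gene annotation are not stated there. The deposited signal values are mean normalised counts of each group, as the column names of the file headers say. The deposited fold column is the ratio of these means (largest relative gap 1.12e-07) and was recomputed as log2. The p-value columns are the authors' own, from DESeq by the column names, and a new Benjamini-Hochberg adjustment over the 16241 tested genes gave the deposited adjusted values within 4.08e-07. The other 6368 rows were at 0 in both groups.

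No test of a gene was made beyond the authors'. Counts per library were not analysed here, so a count test fixed for that case was not used. Depth was read from the 3 smallest means of a group, each worth 1 read of a library. The adjustment was tested on simulated data. Members and lists were chosen with earlier results of these data known. All members were named. In each other list up to 4 called genes with the smallest adjusted p, the 3 most abundant that did not pass, and genes behind a count of 5 or fewer could be named, and others are said to be chosen later. Of the listed genes, Ticrr and Ly6g were not matched by name, and Adgre1 was matched as Emr1. Promoters came from RefSeq (GRCm38.p6), matched by symbol, and their coordinates are not those of mm9. Python 3.11.15 with pandas 2.3.3 was used. Alternatives were other thresholds of adjusted p, a fold minimum, a filter on low means, other scalings and a pseudocount of 10.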

Additional observations from a re-analysis of the deposited data

How the results depend on the processing

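The number of G2/M genes called higher was 11 at an adjusted p threshold of 0.01, 17 at 0.1 and 15 with genes under a mean of 10 left out. With a fold of at least 1.5 required, 5 of 21 G2/M genes and 4 of 31 S phase genes were higher and 0 S phase genes lower. Of all 16241 tested genes 1739 were then higher and 1498 lower. The contrast of 14 of 21 against 4 of 31 thus became 5 of 21 against 4 of 31. The difference of 0.41 between the medians was the same under both scalings, the filter and the pseudocount, which by their construction move all members about alike or remove none, so this is no sign of stability. Also, at a threshold of 0.01 1 S phase gene was lower, because Rrm1 no longer passed. With equal totals 5 changes of uncalled genes changed sign, to -0.05 (Gins2), -0.04 (Pola1), -0.0044 (Hells), -0.01 (Bub1b) and -0.0021 (Kif20a). For the other lists, alternatives were added after seeing the data. A fold of at least 1.5 left higher and lower counts of 0 and 0 for licensing, 1 and 1 for fork subunits, 2 and 2 for nucleotide synthesis, 3 and 0 for kinetochores, 3 and 0 for the anaphase promoting complex and 0 and 1 for recombination. It left 8 spindle and 2 cohesin and condensin genes higher, and 3 cell cycle entry genes and 1 gene of the chromatin list (Stmn1) lower. A threshold of 0.01 left 0 licensing, 7 kinetochore, 11 spindle and 0 recombination genes higher. It left 0 kinetochore, 0 spindle, 1 anaphase promoting complex, 1 recombination and 1 histone gene lower. A threshold of 0.1 gave 2 licensing and 2 recombination genes higher and 2 kinetochore genes lower. The median of the brakes was 0.67 with a pseudocount of 10, and that of the histones 0.38 over genes with a mean of at least 100. No paired analysis was possible because the table holds 1 mean per group and no column carries a replicate number, and leaving out each replicate was not run for the same reason. Depth is lowest for E2f7, Ccne2 and E2f1, which have the lowest means of the members.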
